A study of Homo sapiens with 12 samples.

Results

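Propionyl-CoA is carboxylated and rearranged in mitochondria to succinyl-CoA, and the last step of this route needs a form of vitamin B12 (cobalamin). The 8 genes described here encode the 3 enzymes of the route and the proteins that process cobalamin for it: PCCA, PCCB, MCEE, MMUT, MMAA, MMAB, MMADHC and MMACHC. They were chosen by symbol, matched through the Ensembl identifier, and made up 8 of the 17786 gene identifiers in the count table. The 3 groups of 4 libraries were K562 cells given 2 mM alpha-ketobutyrate (AKB) for 24 h, K562 cells given 2 mM pyruvate for 24 h, and untreated K562 cells. K562 is a single human cell line derived from chronic myelogenous leukaemia, and all 3 groups were grown in RPMI-1640 medium with serum, glutamine and antibiotics. Both compounds are 2-oxo acids that accept electrons from NADH. No label says whether replicates were grown as separate cultures. The p-values therefore reflect only how much these libraries varied, and part or all of that variation may be technical.

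AKB enters mitochondrial metabolism when a 2-oxo acid dehydrogenase oxidises it to propionyl-CoA, which pyruvate does not directly yield. Propionyl-CoA carboxylase, a biotin enzyme, turns propionyl-CoA into methylmalonyl-CoA, an epimerase inverts it, and methylmalonyl-CoA mutase forms succinyl-CoA, which joins the citric acid cycle. Inherited loss of the carboxylase causes propionic acidaemia, and loss of the mutase or of its cobalamin supply causes methylmalonic acidaemia. The comparisons address whether mRNA of this route differed in cells given the precursor of propionyl-CoA.

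Total counts per library ran from 15353200 to 21301073. Pyruvate replicates 3 and 4 stood apart from the other 10 libraries. Their log2 levels rose with transcript GC content by 0.331 and 0.354 per 10 percentage points, against -0.153 to 0.014 in the others. K562 markers fitted the label, with the fetal globin gene HBG2 at 3810 to 5840 counts scaled to library size (CPM), whereas the T cell gene CD3E had at most 2 counts and the natural killer cell gene NKG7 at most 5 counts in any library. The 8 erythroid markers summed to 15417 to 17196 CPM in AKB cells, 11924 to 13398 CPM in pyruvate cells and 14041 to 15706 CPM in untreated cells. By edgeR, the embryonic globin gene HBE1 was higher in AKB cells than in untreated cells (adjusted p = 0.00146), and the fetal globin genes HBG1 and HBG2 were lower in pyruvate cells than in untreated cells (adjusted p = 0.0489 and 0.0206). Of the 8 markers of other blood cells, 6 were measured and summed to 46.5 to 56.7 CPM in AKB cells, 32.6 to 40.7 CPM in pyruvate cells and 34.1 to 41.1 CPM in untreated cells. Most of this sum was the myeloid gene LYZ, which averaged 47.2 CPM in AKB cells and 33.5 CPM in untreated cells (edgeR adjusted p = 0.0308).

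None of the 8 genes was called in any of the 3 comparisons, where a call is an adjusted p below 0.05 over the 13598 genes tested, by edgeR's quasi-likelihood test with Benjamini-Hochberg adjustment. All 8 had enough counts to be tested. For AKB cells against untreated cells, 0 of 8 were called, beside 1.97% of all genes tested. In pyruvate cells against untreated cells 0 of 8 were called, beside 1.95% of all genes, and in AKB cells against pyruvate cells 0 of 8, beside 3.13% of all genes. At an unadjusted p below 0.05 the counts were 0 of 8 in AKB cells against untreated cells, 2 of 8 in pyruvate cells against untreated cells, both lower, and 4 of 8 in AKB cells against pyruvate cells, 1 higher and 3 lower. Among the 50 tested genes of neighbouring steps described below, 3 were higher and 2 lower in the first comparison. In the second, 5 were higher and 5 lower, and in the third 4 were higher and 7 lower. The share of all genes tested at this threshold was not counted, so these counts are not read as a result about the 8 genes. Voom with limma also called 0 of 8 in each comparison, and DESeq2 called 0 of 8, 0 of 8 and 1 of 8, the last being MMAB in AKB cells against pyruvate cells. DESeq2 called more genes of all than edgeR in each comparison, as listed in the closing section. The AKB and pyruvate comparisons share the 4 untreated libraries. The 95% interval of the fold change lay inside a 1.5-fold change either way for 7 of the 8 genes in each of the 3 comparisons, the exception being MMAA, whose counts were low. The median log2 fold change of the 8 genes was -0.032 in AKB cells against untreated cells, where the median of all genes tested was 0.006, and their median size regardless of direction was 0.073, where that of all genes was 0.120. In pyruvate cells against untreated cells the median size was 0.132 for the 8 genes and 0.208 for all genes, and in AKB cells against pyruvate cells 0.175 and 0.183.

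**Figure D1:**
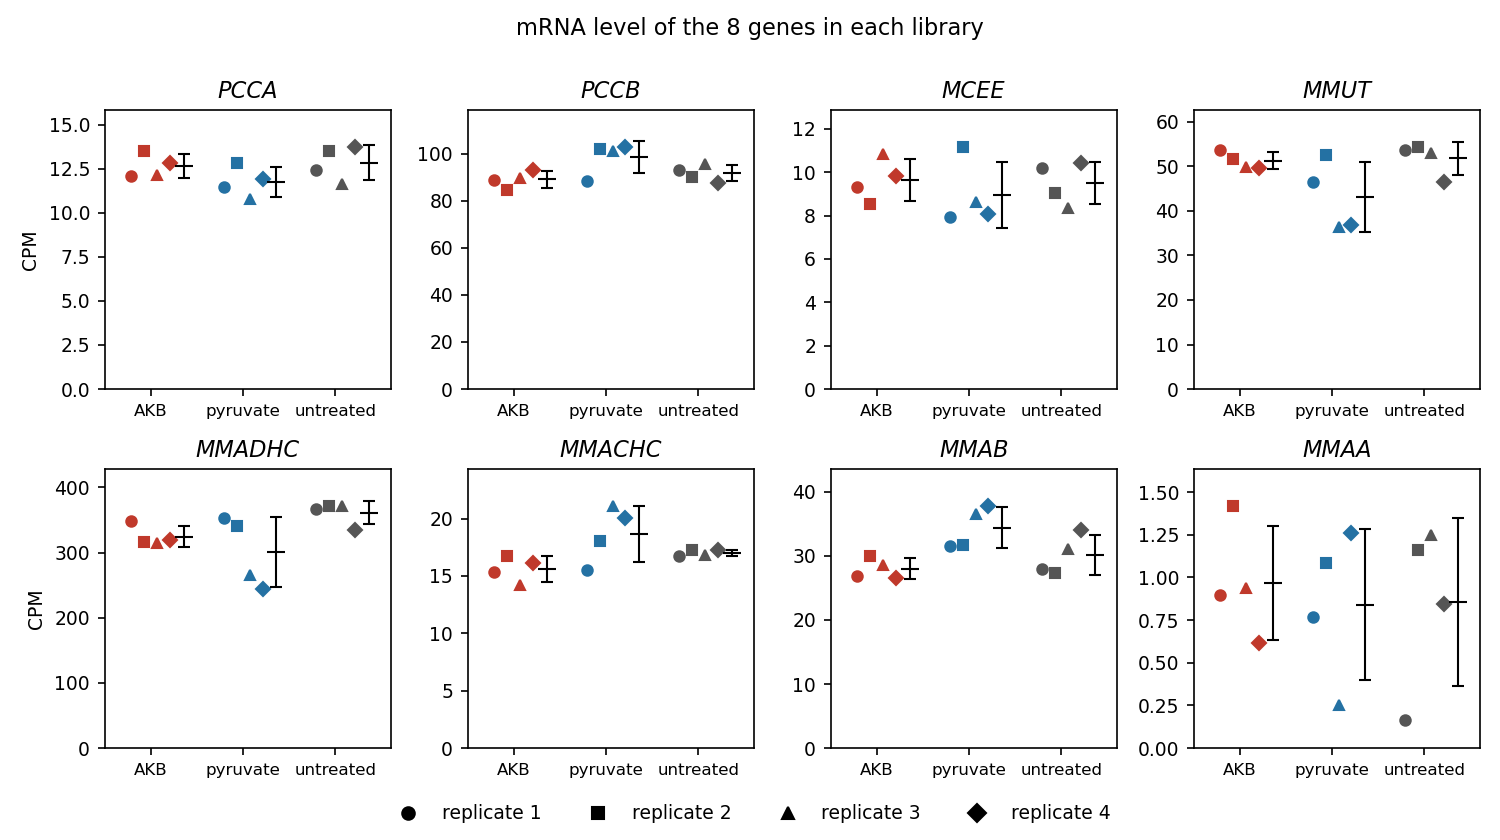
mRNA level of each gene in CPM (y axis, from 0) in the AKB, pyruvate and untreated libraries (x axis); each symbol is 1 library, its shape gives the replicate number, and bars give the mean and SD of 4 libraries. The groups overlap for most genes, and pyruvate replicates 3 and 4 lie lowest for MMUT and MMADHC and highest for MMAB and MMACHC.

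The first enzyme, propionyl-CoA carboxylase, is built from the products of PCCA and PCCB. PCCA (ENSG00000175198) encodes the alpha subunit, which carries biotin, and lies on the plus strand at chr13:100089015-100530437 in GENCODE 29 on GRCh38. Its level was 12.1, 13.5, 12.1 and 12.8 CPM in the 4 AKB libraries, 11.5, 12.8, 10.8 and 11.9 CPM in the pyruvate libraries, and 12.5, 13.5, 11.7 and 13.8 CPM in the untreated libraries. The 3 groups overlapped, and the lowest library of all was pyruvate replicate 3. The log2 fold change was -0.023 in AKB cells against untreated cells, with a 95% interval of -0.222 to 0.177 and an edgeR adjusted p of 0.956. It was -0.13 in pyruvate cells against untreated cells (interval -0.329 to 0.069, edgeR adjusted p = 0.338) and 0.11 in AKB cells against pyruvate cells (edgeR adjusted p = 0.48). The authors' deposited tables gave PCCA the smallest adjusted p of any of the 8 genes, 0.081, for AKB over pyruvate, with a log2 fold change of 0.33 and a standard error of 0.13. In the authors' deposited table of untreated over AKB it stood at -0.24, which is lower in untreated cells, with an adjusted p of 0.361. The deposited counts gave a difference of less than 0.03 between these groups, and the cause of the gap between the authors' estimate and that from the counts was not tested.

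PCCB (ENSG00000114054, plus strand, chr3:136250306-136337896) encodes the beta subunit, which carries out the carboxyl transfer. It stood at 88.7, 84.6, 89.8 and 93.2 CPM in the AKB libraries, 88.5, 102, 101 and 103 CPM in the pyruvate libraries, and 93.1, 90.1, 95.5 and 87.8 CPM in the untreated libraries. Pyruvate replicates 2, 3 and 4 lay above every AKB and untreated library, while pyruvate replicate 1 lay among them. The mean was 89.1 ± 3.55 CPM in AKB cells, 98.7 ± 6.82 CPM in pyruvate cells and 91.6 ± 3.41 CPM in untreated cells (SD, n = 4 each). The AKB to untreated interval was the narrowest of the 8 genes in log2 units, -0.180 to 0.098 around -0.041 (edgeR adjusted p = 0.857). Against untreated cells pyruvate gave 0.11 (edgeR adjusted p = 0.265). AKB cells against pyruvate cells gave -0.15 with an unadjusted p of 0.0387 and an adjusted p of 0.181 by edgeR's quasi-likelihood test. Without pyruvate replicate 1 that difference was -0.20 with an edgeR adjusted p of 0.0381, and without pyruvate replicates 3 and 4 it was -0.098 with an edgeR adjusted p of 0.414. With 1 library left out, the number of all genes called in this comparison ran from 68 to 2111. Of the exonic bases of PCCB, 22.1% lie opposite exons of STAG1, a cohesin gene, and the labels do not say that counting used strand, so reads from the shared bases cannot be told apart. STAG1 itself had 36.7 CPM in AKB cells, 38.6 CPM in pyruvate cells and 45.4 CPM in untreated cells.

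MCEE (ENSG00000124370) encodes methylmalonyl-CoA epimerase and lies on the minus strand at chr2:71109684-71130239. Its level was 9.32, 8.52, 10.8 and 9.82 CPM in the AKB libraries, 7.93, 11.2, 8.64 and 8.07 CPM in the pyruvate libraries, and 10.2, 9.06, 8.35 and 10.4 CPM in the untreated libraries. The groups overlapped, and the highest and the lowest library both belonged to the pyruvate group. The log2 fold change was 0.018 in AKB cells against untreated cells (interval -0.277 to 0.313, edgeR adjusted p = 0.976), -0.087 in pyruvate cells against untreated cells (edgeR adjusted p = 0.671) and 0.11 in AKB cells against pyruvate cells (edgeR adjusted p = 0.649).

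MMUT (ENSG00000146085, minus strand, chr6:49430360-49463191) encodes methylmalonyl-CoA mutase, which uses adenosylcobalamin. It stood at 53.8, 51.6, 49.8 and 49.7 CPM in the AKB libraries, 46.4, 52.6, 36.4 and 36.8 CPM in the pyruvate libraries, and 53.7, 54.4, 52.9 and 46.4 CPM in the untreated libraries. AKB and untreated cells had the same range to within a few CPM, and pyruvate replicates 3 and 4 lay below all other libraries. The mean was 51.2 ± 1.9 CPM in AKB cells, 43.1 ± 7.86 CPM in pyruvate cells and 51.8 ± 3.69 CPM in untreated cells (SD, n = 4 each). The log2 fold change in AKB cells against untreated cells was -0.017, with an interval of -0.257 to 0.223 and an edgeR adjusted p of 0.973. Pyruvate cells against untreated cells gave -0.27, with an unadjusted p of 0.0308 and an adjusted p of 0.141 by edgeR's quasi-likelihood test. Without pyruvate replicates 3 and 4 it was -0.067 (edgeR adjusted p = 0.763), and without pyruvate replicate 2 it was -0.38 (edgeR adjusted p = 0.0239). AKB cells against pyruvate cells gave 0.25 (edgeR adjusted p = 0.186), 0.36 without pyruvate replicate 2 (edgeR adjusted p = 0.0311) and 0.049 without pyruvate replicates 3 and 4 (edgeR adjusted p = 0.779). The fit without pyruvate replicate 2 called 3611 genes of all in pyruvate cells against untreated cells and 2111 in AKB cells against pyruvate cells. With all 12 libraries these counts were 265 and 426.

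Cobalamin reaches the mutase through a chain of handling proteins. MMACHC (ENSG00000132763) acts first, in the cytosol, where its product removes the upper ligand from incoming cobalamin. The gene lies on the plus strand at chr1:45500053-45513382, and its transcription is known to depend on HCFC1, ZNF143 and THAP11. In the RefSeq promoter table (GRCh38.p14), in which all 8 genes had an entry, the 250 bases upstream of the MMACHC start held the core of the ZNF143 binding motif. It was the only gene of the 8 with that match, searched on both strands, and 1.5% of 35114 such windows of all genes held it. The stretch around it is printed because those 3 regulators are among the pathway genes measured below. The stretch is chr1:45500176-45500205 on the plus strand, and the capitals mark the match within it, at chr1:45500186-45500195.
MMACHC: aactacgcatCCCAAGATGCatcgcgcata

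MMACHC mRNA stood at 15.4, 16.7, 14.2 and 16.1 CPM in the AKB libraries, 15.5, 18, 21.1 and 20 CPM in the pyruvate libraries, and 16.8, 17.3, 16.8 and 17.3 CPM in the untreated libraries. The 4 AKB libraries all lay below the 4 untreated libraries, but only just, since the highest AKB library had 16.74 CPM and the lowest untreated library 16.75 CPM. MMACHC was the only one of the 8 genes whose AKB and untreated libraries did not overlap, beside 17.2% of all genes tested. In pyruvate cells against untreated cells 0 of 8 were free of overlap, beside 10.9% of all genes, and in AKB cells against pyruvate cells 1 of 8, beside 11.6%. The MMACHC mean was 15.6 ± 1.1 CPM in AKB cells, 18.7 ± 2.46 CPM in pyruvate cells and 17 ± 0.274 CPM in untreated cells (SD, n = 4 each). The log2 fold change was -0.13 in AKB cells against untreated cells (interval -0.341 to 0.090, edgeR adjusted p = 0.66). It was 0.14 in pyruvate cells against untreated cells (edgeR adjusted p = 0.356), and -0.020 without pyruvate replicates 3 and 4 (edgeR adjusted p = 0.949). The difference between AKB cells and pyruvate cells was -0.26, with an unadjusted p of 0.0215 and an edgeR adjusted p of 0.14. That became -0.35 with an edgeR adjusted p of 0.0286 without pyruvate replicate 1, and -0.11 with an edgeR adjusted p of 0.563 without pyruvate replicates 3 and 4. With 1 library left out, the number of all genes called in AKB cells against pyruvate cells ran from 68 to 2111. PRDX1, which shares 7.16% of the exonic bases of MMACHC on the other strand and is an abundant peroxidase gene, had 750 CPM in AKB cells, 733 CPM in pyruvate cells and 742 CPM in untreated cells.

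MMADHC (ENSG00000168288, minus strand, chr2:149569634-149587816) encodes the protein that directs processed cobalamin to the mitochondrion or to methionine synthase in the cytosol. It had 348, 316, 315 and 320 CPM in the AKB libraries, 353, 341, 265 and 244 CPM in the pyruvate libraries, and 367, 371, 372 and 335 CPM in the untreated libraries. AKB replicates 2, 3 and 4 lay below every untreated library, and AKB replicate 1 lay above untreated replicate 4. Pyruvate replicates 3 and 4 were the lowest of all 12, while pyruvate replicates 1 and 2 lay within the untreated range. The mean was 324 ± 15.7 CPM in AKB cells, 301 ± 54 CPM in pyruvate cells and 361 ± 17.6 CPM in untreated cells (SD, n = 4 each). In AKB cells against untreated cells the log2 fold change was -0.155 (interval -0.384 to 0.074, edgeR adjusted p = 0.595), the lowest of the 8 genes in this comparison. In the fit without pyruvate replicates 3 and 4 the same -0.155 had an interval of -0.256 to -0.054 and an edgeR adjusted p of 0.0591. In pyruvate cells against untreated cells it was -0.27, with an unadjusted p of 0.0266 and an edgeR adjusted p of 0.134. The value was -0.059 without pyruvate replicates 3 and 4 (edgeR adjusted p = 0.703), -0.34 without pyruvate replicate 1 (edgeR adjusted p = 0.035) and -0.33 without pyruvate replicate 2 (edgeR adjusted p = 0.0432). The fit without pyruvate replicate 2 called 3611 genes of all in this comparison, where that to all 12 libraries called 265. AKB cells against pyruvate cells gave 0.11 with all 12 libraries (edgeR adjusted p = 0.528) and -0.096 without pyruvate replicates 3 and 4 (edgeR adjusted p = 0.358). MMADHC shares 25.6% of its exonic bases with the antisense transcript MMADHC-DT, which had no entry in the count table, and reads from the shared bases cannot be told apart. The pseudogenes MMADHCP1 and MMADHCP2, and MMACHCP1 for MMACHC, had no entry in the count table either, and how the counting split reads between such copies is not stated.

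MMAB (ENSG00000139428, minus strand, chr12:109553737-109573874) encodes the adenosyltransferase that converts cobalamin into the adenosyl form used by the mutase. Its start site lies 290 bases from that of MVK, the mevalonate kinase gene, which runs the other way. MVK also shares 4.86% of the exonic bases of MMAB on the other strand. The labels do not say that counting used strand, so reads from these shared bases cannot be told apart. The 250 bases before the RefSeq start of MMAB, at chr12:109573505-109573754 on the minus strand (GRCh38.p14), hold 5 copies of the CCAAT box, counted on both strands. They are printed because MMAB came nearest to a call in this data set. The capitals mark the boxes, with ATTGG standing for a box on the other strand.
MMAB: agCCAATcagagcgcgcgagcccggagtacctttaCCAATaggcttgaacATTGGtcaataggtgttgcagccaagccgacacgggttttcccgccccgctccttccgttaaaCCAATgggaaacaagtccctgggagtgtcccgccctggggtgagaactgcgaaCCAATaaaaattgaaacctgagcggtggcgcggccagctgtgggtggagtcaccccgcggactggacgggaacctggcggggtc

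At least 1 CCAAT box was found in 32% of the 35114 promoter windows, and 4 or more in 0.874%. MMACHC, MMADHC and MMUT had 1 box each and PCCA, PCCB, MCEE and MMAA none. The element TGATGNAA, bound by ATF4 with C/EBP proteins, was found in 0 of the 8 windows and in 3.14% of all windows, and the sterol regulatory element TCACCCCAC in 0 of 8 and in 0.362% of all. A match is a run of letters in this window and no more. Only these letters were searched, so the lack of a match does not show that a gene lacks such an element.

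MMAB mRNA stood at 26.8, 30, 28.6 and 26.6 CPM in the AKB libraries, 31.6, 31.7, 36.5 and 37.8 CPM in the pyruvate libraries, and 27.9, 27.3, 31 and 34.1 CPM in the untreated libraries. Every AKB library lay below every pyruvate library, and the untreated libraries overlapped both groups. The mean was 28 ± 1.6 CPM in AKB cells, 34.4 ± 3.21 CPM in pyruvate cells and 30.1 ± 3.12 CPM in untreated cells (SD, n = 4 each). In AKB cells against pyruvate cells the log2 fold change was -0.30, a level 0.813 times that in pyruvate cells, with an interval of -0.498 to -0.100, an unadjusted p of 0.0066 and an edgeR adjusted p of 0.0832. This missed the threshold in the fit to all 12 libraries and passed it in 5 of the 23 other fits made. These were DESeq2 (-0.32, adjusted p = 0.0245), edgeR with a correction for GC content (-0.24, adjusted p = 0.0341), the same with a term for the replicate number (-0.24, adjusted p = 0.0436), and edgeR without pyruvate replicate 1 (-0.35, adjusted p = 0.0413) or without pyruvate replicate 2 (-0.33, adjusted p = 0.0403). The fit without pyruvate replicate 2 called 2111 genes of all in this comparison, where that to all 12 libraries called 426. DESeq2 and both fits with the correction for GC content also called far more genes of all than that, as listed in the closing section. The MMAB difference was weakest without pyruvate replicates 3 and 4, at -0.18 with an edgeR adjusted p of 0.294, and MMAB was lower in AKB cells in all 24 fits, whose adjusted p ran from 0.0245 to 0.294. In AKB cells against untreated cells it was -0.11 (edgeR adjusted p = 0.702), and in pyruvate cells against untreated cells 0.19 (edgeR adjusted p = 0.18). The authors' deposited table of AKB over pyruvate gave MMAB -0.18 with an adjusted p of 0.272. MVK, its divergent neighbour, had 46.3 CPM in AKB cells, 49.4 CPM in pyruvate cells and 41.8 CPM in untreated cells, and was not called in any comparison (edgeR adjusted p of 0.55 in AKB cells against pyruvate cells).

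MMAA (ENSG00000151611, plus strand, chr4:145599042-145660035) encodes the GTPase that loads adenosylcobalamin onto the mutase. Its counts were 14, 23, 16 and 10 in the AKB libraries, 13, 18, 5 and 27 in the pyruvate libraries, and 3, 19, 23 and 14 in the untreated libraries. In CPM these are 0.969 ± 0.333 in AKB cells, 0.841 ± 0.442 in pyruvate cells and 0.855 ± 0.491 in untreated cells (SD, n = 4 each). The groups overlapped over most of their range. The 95% interval of the fold change in AKB cells against untreated cells ran from 0.503 to 2.56, so a change of about that size in either direction was not detectable at this depth (edgeR adjusted p = 0.934). The log2 estimate was 0.18 with all libraries and -0.16 without untreated replicate 1. The other 2 comparisons gave -0.020 in pyruvate cells against untreated cells and 0.20 in AKB cells against pyruvate cells, with edgeR adjusted p of 0.982 and 0.835.

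**Figure D2:**
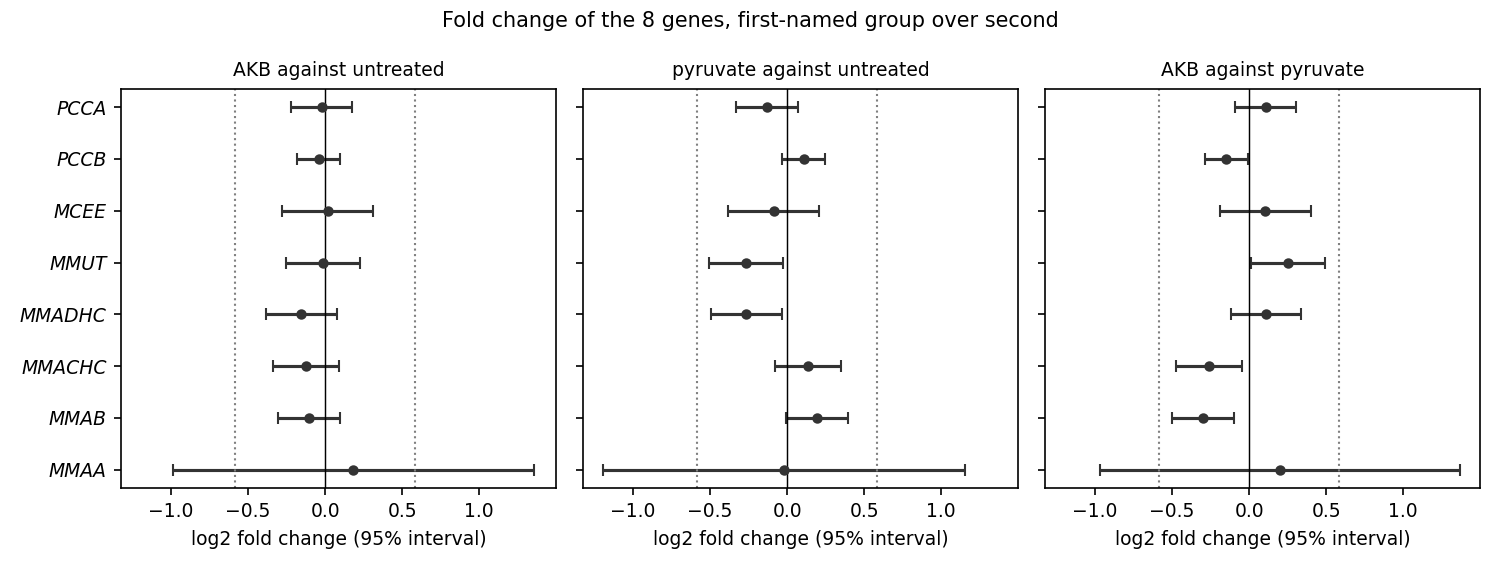
log2 fold change of each gene with its 95% interval (x axis) in AKB cells against untreated cells, pyruvate cells against untreated cells and AKB cells against pyruvate cells, by edgeR on all 12 libraries; dotted lines mark a 1.5-fold change either way. For every gene but MMAA, the interval stays between the dotted lines in the 3 panels, and that of MMAB in AKB cells against pyruvate cells, -0.498 to -0.100, lies farthest from 0.

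The differences between pyruvate and untreated cells were carried mainly by pyruvate replicates 3 and 4, and in these 2 libraries MMUT and MMADHC, of low GC content, lay below untreated cells and MMACHC and MMAB, of higher GC content, above them. MMUT, at 38.8% GC, averaged 36.6 CPM in pyruvate replicates 3 and 4 and 49.5 CPM in pyruvate replicates 1 and 2, against 51.8 CPM in untreated cells. MMADHC, at 42.2% GC, averaged 255 CPM in pyruvate replicates 3 and 4 and 347 CPM in pyruvate replicates 1 and 2, against 361 CPM in untreated cells. MMACHC, at 48.1% GC, averaged 20.6 CPM in pyruvate replicates 3 and 4 and 16.8 CPM in pyruvate replicates 1 and 2, against 17 CPM in untreated cells. MMAB, at 52.4% GC, averaged 37.1 CPM in pyruvate replicates 3 and 4 and 31.7 CPM in pyruvate replicates 1 and 2, against 30.1 CPM in untreated cells. MCEE differed from this pattern. At 54.5% GC, the highest of the 8, it averaged 8.35 CPM in pyruvate replicates 3 and 4 and 9.56 CPM in pyruvate replicates 1 and 2, against 9.51 CPM in untreated cells. In pyruvate replicates 1 and 2, 7 of the 8 mean log2 levels lay within 0.08 of the untreated mean, the exception being the sparse MMAA at 0.16. With a correction for GC content the log2 fold change of MMUT in pyruvate cells against untreated cells was -0.050 (edgeR adjusted p = 0.538) and that of MMADHC -0.12 (edgeR adjusted p = 0.112), both nearer to 0 than without it. MMAB, at 0.12, and PCCA, at -0.032, also moved nearer to 0. PCCB moved away from 0, to 0.18 from 0.11 without the correction (edgeR adjusted p = 0.105 with it). MCEE likewise stood at -0.19, where it had been -0.087, and MMACHC at 0.16, where it had been 0.14, with edgeR adjusted p of 0.429 and 0.313 under the correction. MMAA stood at 0.20. None of the 8 genes was called in pyruvate cells against untreated cells with the correction.

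**Figure D3:**
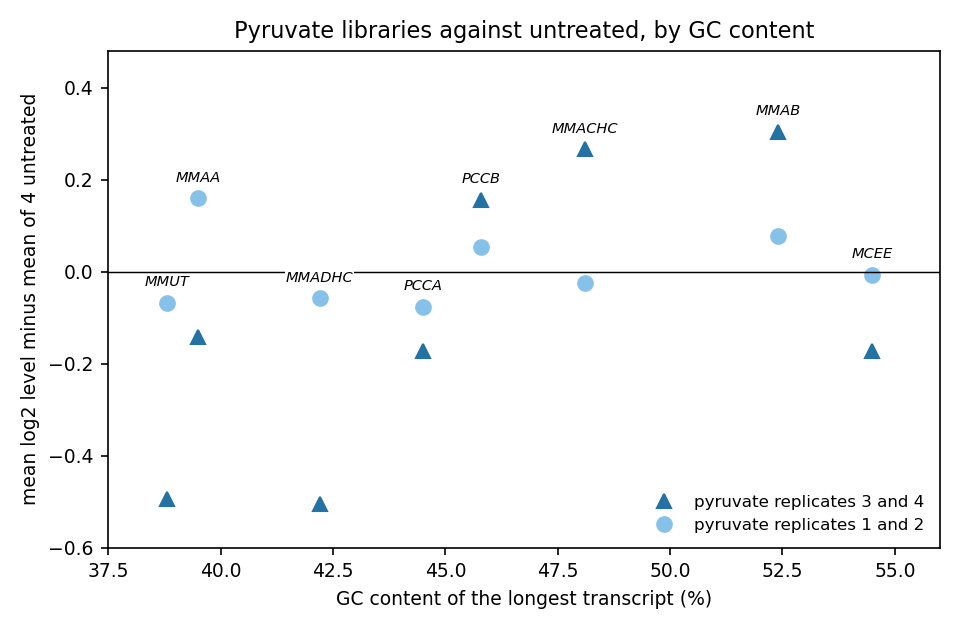
Mean log2 level minus the mean of the 4 untreated libraries (y axis) of each gene in pyruvate replicates 3 and 4 (triangles) and in pyruvate replicates 1 and 2 (circles), against the GC content of its longest transcript in percent (x axis). The triangles of MMUT and MMADHC lie near -0.5 and those of MMACHC and MMAB near 0.3, while the circles lie between -0.077 and 0.159.

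Levels of the 8 genes were compared with each other per kilobase of the principal transcript in GENCODE 29. On this scale, in CPM per kilobase averaged over the 12 libraries, MMADHC stood highest at 190, which is the 97.6th percentile of 12171 genes, followed by PCCB at 50.8, MMUT at 13, MCEE at 11.2, MMAB at 6.94, PCCA at 4.98, MMACHC at 3.23 and MMAA at 0.126, the 1.5th percentile. MMUT, with 9.71 to 14.5 over the libraries, and MCEE, with 9.5 to 13.4, overlapped, and no other neighbours in the order did. The distance of PCCB from MMUT rested on the transcript chosen, since per kilobase of its longest transcript PCCB stood at 15.3. Among the cobalamin handling genes the level of MMADHC per kilobase was 59 times that of MMACHC, and that of MMAB was 55.3 times that of MMAA. The beta subunit mRNA of the carboxylase, PCCB, stood at 10.2 times the alpha subunit mRNA, PCCA, per kilobase. That ratio rested on the transcript chosen, since with the longest transcript of each gene, in place of the principal one, it was 3.07, an alternative added after the data were seen.

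**Figure D4:**
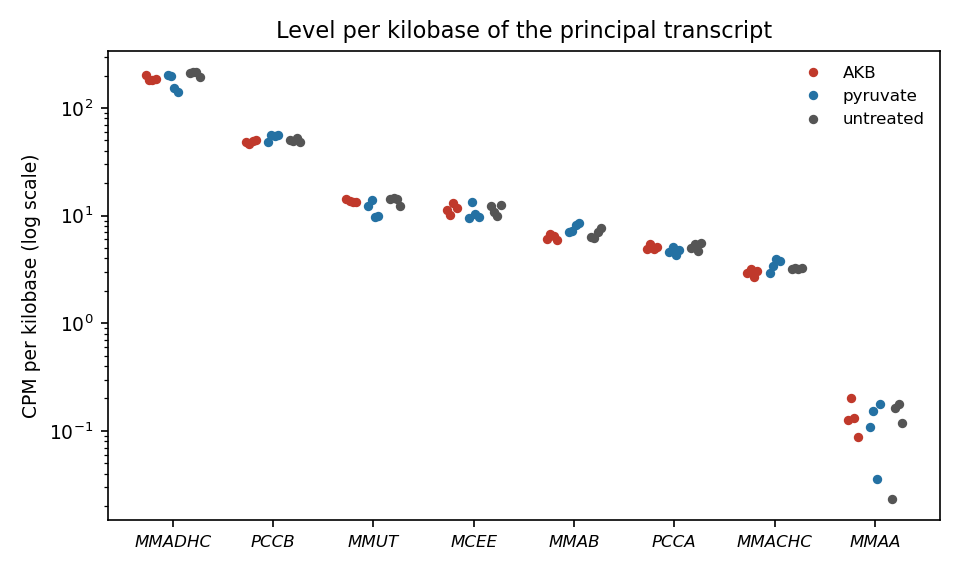
Level in CPM per kilobase of the principal transcript (y axis, log scale) of the 8 genes in order of their mean, each point being 1 library of the AKB, pyruvate or untreated group. The order runs from MMADHC, mean 190, to MMAA, mean 0.126, and the points of MMUT and MCEE cover the same range.

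Across the 12 libraries, the gene whose log2 level had the highest Pearson r with MMADHC was LAMTOR3, with r = 0.988 over 12 libraries and 0.944 over the 10 without pyruvate replicates 3 and 4. For MMUT it was PAFAH1B2 (0.980 over 12 and 0.920 over 10), for MMACHC MCM5 (0.970 and 0.933), for MMAB MAX (0.942 and 0.862) and for PCCB TIMM10 (0.932 and 0.906). PCCA was nearest to the pseudogene HNRNPA1P49 (0.886 and 0.838) and MCEE to LEKR1 (0.855 over 12). Over those 10 libraries the nearest gene was a different one for all 8 genes, for example YRDC for MMADHC (0.979), ZNF691 for MMUT (0.934), TRMT1 for MMACHC (0.960), TMTC4 for MMAB (0.895) and EMC3 for PCCB (0.915). These values describe the libraries, which share group, depth and the GC difference of pyruvate replicates 3 and 4. For MMAA the counts are too sparse for its nearest gene to be read as a finding.

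Another 56 genes of the neighbouring steps were examined in 6 lists, of which 50 had enough counts to be tested. The genes for intestinal and renal uptake of cobalamin, CBLIF, CUBN, AMN and LRP2, were not tested, with at most 9 counts in any library, nor were ACSS3 and ACADL. Of the 50, 1 rose and 1 fell in AKB cells against untreated cells, 1 rose and none fell in pyruvate cells against untreated cells, and 1 rose and 1 fell in AKB cells against pyruvate cells, by edgeR's quasi-likelihood test. Beside them, 1.97%, 1.95% and 3.13% of all genes tested were called in these comparisons. So few calls are not read as a result about the lists. The median log2 fold changes of the 50 genes were -0.010, -0.052 and 0.041 in the same order.

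ACADSB, which encodes the short/branched-chain acyl-CoA dehydrogenase of isoleucine breakdown, another source of propionyl-CoA, had 29.6, 30.9, 29 and 29.1 CPM in the AKB libraries, 25.7, 23.7, 22.3 and 21.9 CPM in the pyruvate libraries, and 19.9, 22.6, 22.8 and 20.9 CPM in the untreated libraries. All 4 AKB libraries lay above all 8 others. It rose by 0.46 on the log2 scale in AKB cells against untreated cells (standard error 0.075, edgeR adjusted p = 0.00917) and passed the threshold in all 24 fits. Its level was higher by 0.34 in AKB cells against pyruvate cells (edgeR adjusted p = 0.0369), a call made in 8 of 24 fits. With 1 library left out that call was made in 2 of 12 fits, those without pyruvate replicate 1 or 2, and the adjusted p was at most 0.111 in the others. With the correction for GC content the difference from pyruvate cells was 0.15 (edgeR adjusted p = 0.214), and ACADSB was then also higher in pyruvate cells than in untreated cells, by 0.35 (edgeR adjusted p = 0.0197), where without the correction that difference was 0.12 (edgeR adjusted p = 0.294). The rise is therefore not shown to be particular to AKB. HLCS, the gene of the enzyme that attaches biotin to PCCA and the other carboxylases, had 36.8, 34.8, 34.3 and 38 CPM in the AKB libraries, 41.6, 46.8, 36.4 and 39.6 CPM in the pyruvate libraries, and 48.8, 47.6, 44.9 and 43.1 CPM in the untreated libraries. The AKB and untreated libraries did not overlap, and the pyruvate libraries overlapped both. In AKB cells against untreated cells HLCS fell by 0.36 on the log2 scale (standard error 0.0818, edgeR adjusted p = 0.0462), a call made in 12 of 24 fits with adjusted p from 0.00218 to 0.156. It was lost when any AKB or untreated library was left out and made when any pyruvate library was. Pyruvate cells against untreated cells gave -0.17 (edgeR adjusted p = 0.193). AKB cells against pyruvate cells gave -0.19 (edgeR adjusted p = 0.179), or -0.22 with the correction for GC content (edgeR adjusted p = 0.0264). LYZ and HBE1 moved in the same comparison as ACADSB and HLCS, and their part in these results was not tested. HSD17B10, the dehydrogenase of a later step of isoleucine breakdown, had 58.1, 61.1, 52.6 and 59.4 CPM in the AKB libraries, 60.5, 86.7, 95.2 and 91.4 CPM in the pyruvate libraries, and 56.4, 50.4, 52.5 and 59.9 CPM in the untreated libraries. It rose by 0.61 on the log2 scale in pyruvate cells against untreated cells (edgeR adjusted p = 0.0345) and was lower by 0.53 in AKB cells than in pyruvate cells (edgeR adjusted p = 0.0429). Without pyruvate replicates 3 and 4 these were 0.43 and -0.35, with edgeR adjusted p of 0.145 and 0.129. With the correction for GC content they were 0.42 and -0.40, and both stayed called (edgeR adjusted p = 0.0214 and 0.0181). With 1 library left out, the rise over untreated cells was called in 3 of 12 fits, those without untreated replicate 4 or pyruvate replicate 1 or 2, and the difference from AKB cells in 2 of 12, those without pyruvate replicate 1 or 2.

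No other gene of the 6 lists passed the threshold. Of the 10 genes of the 2-oxo acid dehydrogenases and their regulators, none was called, and the lowest p values belonged to PDHA1, the catalytic alpha subunit gene of pyruvate dehydrogenase, at 167 CPM in AKB cells, 195 CPM in pyruvate cells and 163 CPM in untreated cells, and PPM1K, the phosphatase gene for the branched-chain complex, at 34.7, 29.6 and 37.9 CPM in the same order of groups. Of the 6 tested cobalamin uptake genes none was called, including TCN1, a cobalamin binding protein gene at 1.07, 0.699 and 1.43 CPM in AKB, pyruvate and untreated cells, and ABCC1, an exporter gene at 46.7, 44.2 and 38.9 CPM. Of the 5 genes for cytosolic cobalamin use and MMACHC transcription none was called. HCFC1 had 272, 355 and 303 CPM and THAP11 35.9, 38.2 and 30.8 CPM in AKB, pyruvate and untreated cells. In the biotin list, SLC5A6, a biotin transporter gene, had 155, 163 and 177 CPM in these groups, with a log2 fold change of -0.19 in AKB cells against untreated cells (edgeR adjusted p = 0.142). In the list for succinyl-CoA use, OGDH had 93.4, 117 and 102 CPM and ACSF3, the malonyl-CoA and methylmalonyl-CoA synthetase gene, 29, 32.7 and 31.4 CPM, with no call.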

How the data were processed

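RNA of 12 K562 libraries was poly(A)-selected, per the labels' protocols. Salmon 1.2.1, DESeq2 1.26.0 and R 3.6.3 appear in the submitters' processing notes. Build, annotation and strand setting were not given in the sources used here. Estimated counts per gene, all whole numbers, were deposited by the authors. The authors' deposited tables hold, per the file headers, a mean normalised signal, log2 fold changes with standard errors, a score (the Wald statistic), p-values and adjusted p-values.

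From the counts, edgeR 4.0.16 (R 4.3.3) fitted 1 term per group to 12 libraries with TMM scaling, after filterByExpr with a minimum count of 10; 13598 genes were tested. CPM uses TMM library sizes. Symbols matched 90.3% of identifiers and GC content 95%, from GENCODE 29. Alternatives used limma 3.58.1 (voom), DESeq2 1.42.0, other scalings and filters, a GC offset by lowess (span 0.3), a replicate term, and libraries left out. The scripts were tested on simulated data. No 2 libraries of the same group were duplicates, and libraries of different groups were not compared in this way.

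The 8 genes and the 6 lists were chosen with earlier results of these data known. Text names the 8, every called list gene and the 2 of each list with the smallest p. The promoter motifs were chosen after the promoters had been seen.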

Additional observations from a re-analysis of the deposited data

Results flagged for a closer look

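Among 60 groups of 4 libraries examined for 20 genes, 3 held a library far from the other 3 by Dixon's criterion, where chance gives about 1 in 20. PCCB had 88.5 CPM in pyruvate replicate 1 and 101 to 103 CPM in the other pyruvate libraries. MMADHC had 348 CPM in AKB replicate 1 and 315 to 320 CPM in the other AKB libraries. MMADHC also had 335 CPM in untreated replicate 4 and 367 to 372 CPM in the other untreated libraries.

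For 2 genes of the neighbouring steps and 3 marker genes, the response to AKB and the response to pyruvate differed from each other in the direct test between the treated groups. HSD17B10 differed by -0.53 on the log2 scale in AKB cells against pyruvate cells (edgeR adjusted p = 0.0429), a call that was made in 10 of 24 fits with adjusted p from 0.00151 to 0.152. With the correction for GC content HSD17B10 differed by -0.40 (edgeR adjusted p = 0.0181). ACADSB differed by 0.34 (edgeR adjusted p = 0.0369), a call made in 8 of 24 fits with adjusted p from 0.00305 to 0.214. With the correction for GC content it was 0.15 (adjusted p = 0.214), and ACADSB was then 0.35 higher in pyruvate cells than in untreated cells (adjusted p = 0.0197). Among the markers, LYZ differed by 0.61 (edgeR adjusted p = 0.0125), HBE1 by 0.59 (edgeR adjusted p = 0.00072) and HBG2 by 0.37 (edgeR adjusted p = 0.0108) in AKB cells against pyruvate cells, each higher in AKB cells.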

How the results depend on the processing

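The 8 levels per group moved by less than 1 SD under every scaling tried. Of the log2 fold changes of the 8 genes under settings other than leaving out 1 library, 244 kept direction and call, 3 gained a call, all of them MMAB in AKB cells against pyruvate cells, and 14 changed sign, all of estimates close to 0 or of sparse MMAA except where pyruvate replicates 3 and 4 were left out. In AKB cells against untreated cells, PCCA was 0.003 with the GC offset and 0.005 with the GC offset and replicate block, MCEE -0.014 and -0.010, and MMUT 0.032 and 0.033. In pyruvate cells against untreated cells, MMAA was 0.084 with voom, 0.018 with the replicate block, 0.198 with the GC offset, 0.238 with both and 0.118 without pyruvate replicates 3 and 4, which also gave MCEE 0.008 and MMACHC -0.020. In AKB cells against pyruvate cells that setting gave MMADHC -0.096. Leaving out each library gave these ranges where a sign changed: in AKB cells against untreated cells, MCEE -0.041 to 0.071, MMAA -0.162 to 0.429, MMUT -0.068 to 0.006 and PCCA -0.067 to 0.011; in pyruvate cells against untreated cells, MMAA -0.359 to 0.302; in AKB cells against pyruvate cells, MMAA -0.122 to 0.472. The count of the 8 genes called was 0 to 0, 0 to 2 and 0 to 3 with 1 library left out, in AKB cells against untreated cells, pyruvate cells against untreated cells and AKB cells against pyruvate cells, and in the last 1 with DESeq2, the GC offset or both the offset and block. The cause was not tested.

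Counts of calls moved far more. Over all genes tested, AKB cells against untreated cells had 268 calls, 539 with DESeq2, 158 with the block, 1339 with the 8 libraries alone, 1169 with the GC offset, 942 with offset and block, and 1278 without pyruvate replicates 3 and 4. Pyruvate cells against untreated cells had 265, and 152 with no filter, 1821 with DESeq2, 565 with the block, 16 with the 8 libraries alone, 1312 with the GC offset, 1430 with offset and block, and 99 without pyruvate replicates 3 and 4. AKB cells against pyruvate cells had 426, and 214 with no filter, 1519 with DESeq2, 6 with the 8 libraries alone, 1985 with the GC offset and 1973 with offset and block. With 1 library left out these counts ran from 92 to 357, 32 to 3611 and 68 to 2111. For the 50 neighbouring genes, AKB cells against untreated cells had 2 calls, 1 with total-count scaling, no filter, voom or the block, 4 with the 8 libraries alone, and 5 with the GC offset, offset and block, or without pyruvate replicates 3 and 4. Pyruvate cells against untreated cells had 1, 6 with DESeq2, 7 with the GC offset, 5 with offset and block, and 0 with the 8 libraries alone or without pyruvate replicates 3 and 4. AKB cells against pyruvate cells had 2, 0 with no filter or the 8 libraries alone, 7 with DESeq2, 1 with the block, 9 with the GC offset and 10 with offset and block. With 1 library left out they ran from 1 to 2, 0 to 10 and 0 to 7. The PCCB to PCCA ratio per kilobase was 10.2, or 3.07 with the longest transcripts.

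Same-numbered libraries had correlated deviations from their group means of -0.105 to 0.264, not all above 0.1, so the numbers were not taken to pair the libraries, and the replicate block changed no call of the 8 genes. Depth limits MMAA, at 3 to 27 counts.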
